A study of Mus musculus with 4 samples.

Results

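A group of 10 genes that set epithelial or mesenchymal identity was read by symbol from a mouse RNA-seq count table of 25413 genes. Zeb1, Zeb2, Snai1, Snai2, Twist1, Twist2 and Prrx1 are transcription factors of the mesenchymal state, Grhl2 and Ovol1 are transcription factors of the epithelial state, and Esrp1 is a splicing factor of the epithelial state. The RNA came from cells labelled as wild-type EpH4, a line of immortalised epithelial cells of the mouse mammary gland, kept in 2D culture. One group of 2 libraries came from cells given PM2.5, fine airborne particulate matter, and the other, of 2 libraries, from untreated Control cells. Total counts were 20232277 and 18548478 in the PM2.5 libraries, and 19562930 and 26206329 in the Control libraries. The labels give no dose, particle source, exposure time, passage or clone, and 1 batch value covers all 4 libraries. They do not say that replicates were separate cultures, so p-values measure the spread between these libraries, which may be technical.

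SNAI and ZEB proteins are zinc finger repressors that bind E-boxes in the promoters of junction genes such as Cdh1 and recruit histone-modifying corepressors, which shuts the epithelial programme down. TWIST proteins are basic helix-loop-helix factors that pair with E proteins, and PRRX1 is a homeobox factor of embryonic mesenchyme. GRHL2 and OVOL factors work against ZEB factors in epithelial cells, and ESRP1 imposes the epithelial form of spliced transcripts.

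The bases just before the start sites of 4 genes are shown because they carry, or lack, the E-box that SNAI and ZEB factors bind. Crb3, which encodes an apical polarity protein, and Epcam, which encodes an epithelial adhesion molecule, had 0 counts in every library. Snai1 and Prrx1 were among the most abundant of the 10 regulators. Each sequence is the 250 bases upstream of the RefSeq start site on GRCm38.p6, printed 5′ to 3′ in the direction of the gene. Capitals mark the E-box CACCTG or its reverse complement CAGGTG. The positions are chr17:57061951-57062200 (plus strand) for Crb3, chr17:87635729-87635978 (plus strand) for Epcam, chr2:167537945-167538194 (plus strand) for Snai1 and chr1:163313651-163313900 (minus strand) for Prrx1.
Crb3: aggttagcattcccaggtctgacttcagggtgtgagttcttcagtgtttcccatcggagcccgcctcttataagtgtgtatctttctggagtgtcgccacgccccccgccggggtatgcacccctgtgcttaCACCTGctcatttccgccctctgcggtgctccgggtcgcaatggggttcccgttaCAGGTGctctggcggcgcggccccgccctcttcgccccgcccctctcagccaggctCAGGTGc
Epcam: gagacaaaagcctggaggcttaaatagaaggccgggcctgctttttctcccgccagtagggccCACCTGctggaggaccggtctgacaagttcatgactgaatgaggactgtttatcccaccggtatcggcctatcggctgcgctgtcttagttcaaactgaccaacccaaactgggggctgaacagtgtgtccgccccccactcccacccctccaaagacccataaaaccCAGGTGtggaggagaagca
Snai1: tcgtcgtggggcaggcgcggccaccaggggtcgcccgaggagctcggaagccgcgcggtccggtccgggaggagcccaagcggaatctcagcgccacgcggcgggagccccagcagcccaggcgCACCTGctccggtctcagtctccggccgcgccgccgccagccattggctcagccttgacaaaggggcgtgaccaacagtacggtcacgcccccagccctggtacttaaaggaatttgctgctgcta
Prrx1: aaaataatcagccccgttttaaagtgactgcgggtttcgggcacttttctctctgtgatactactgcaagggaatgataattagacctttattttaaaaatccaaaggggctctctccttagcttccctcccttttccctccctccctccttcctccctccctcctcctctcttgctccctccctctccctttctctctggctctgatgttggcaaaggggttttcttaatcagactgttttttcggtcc
The Crb3 stretch held 3 matches, the Epcam stretch 2 and the Snai1 stretch 1, and the Prrx1 stretch held 0. A match describes the letters and is not evidence of binding.

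All 7 mesenchymal regulators were expressed in every library, while the 3 epithelial regulators were at or near 0. RPKM, the read count scaled to library size and to a length for each gene, allows levels to be compared between genes. That length is not the span of the gene on the chromosome. In PM2.5 cells the mesenchymal regulators ranged from a mean of 19.1 RPKM for Twist1 to 4.96 RPKM for Twist2, and in Control cells from 18.0 RPKM for Prrx1 to 4.14 RPKM for Twist2. Averaged over the 4 libraries, they lay between the percentiles 55.2 and 81.8 of genes with any count. Grhl2, Ovol1 and Esrp1 had means of 0.124, 0.049 and 0 RPKM in PM2.5 cells, against 0.0261, 0.0294 and 0 RPKM in Control cells.

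The order of levels differed between the groups. In PM2.5 cells it ran Twist1, Snai1, Prrx1, Zeb2, Snai2, Zeb1 and Twist2, and in Control cells Prrx1, Twist1, Snai1, Snai2, Zeb1, Zeb2 and Twist2. In PM2.5 cells the RPKM values of Zeb2, Snai2 and Zeb1 overlapped between neighbours in the order and could not be ranked. In Control cells Prrx1 and Twist1 overlapped. No other pair of neighbours among the 7 overlapped over the 2 libraries of a group, and the order itself was not tested.

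**Figure D1:**
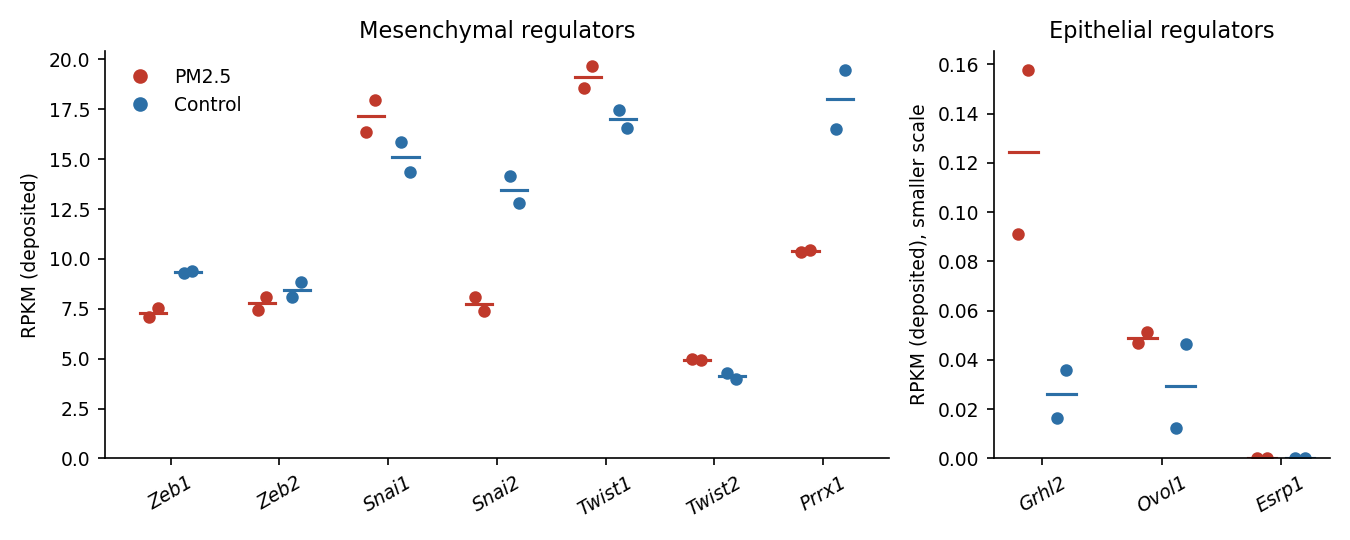
RPKM (y axis, linear, deposited values) of the 7 mesenchymal and 3 epithelial regulators (x axis), with PM2.5 libraries in red on the left of each gene and Control libraries in blue on the right. Each point is 1 library and each short line the mean of 2. Prrx1, Snai2 and Zeb1 sit lower in both PM2.5 libraries, and the epithelial panel, on its own scale, ends below 0.16 RPKM.

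Of the 10 regulators, 8 passed the filter on low counts. Prrx1, Snai2 and Zeb1 fell in PM2.5 cells, and Zeb2, Snai1, Twist1 and Twist2 did not pass the threshold. Grhl2 was called higher, but it reached the tested set only through the PM2.5 libraries where it is high, and its call was lost in DESeq2 and without either of 2 libraries. Across all 12478 genes tested, edgeR's quasi-likelihood test with Benjamini-Hochberg adjustment called 39.6% at an adjusted p under 0.05, with 20.4% lower and 19.2% higher. The share of 4 in 8, Grhl2 included, is close to that background and is not a result about the regulators. The PM2.5 and Control libraries did not overlap for any of these 8 genes, with 4 lower and 4 higher in PM2.5 cells. Of all genes tested 71.0% did not overlap either, with 35.1% lower and 35.9% higher. The median log2 fold change of the 8 was 0, against 0.006 over all genes tested. Below, CPM is the count scaled to library size with TMM factors, and SE is the standard error of the log2 fold change. In bulk RNA, fewer cells that express a gene and less RNA per cell cannot be told apart.

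Prrx1 (ENSMUSG00000026586; chromosome 1, 163072688 to 163141279, minus strand, GRCm39) had the highest mean RPKM of the regulators in Control cells, with values that overlapped those of Twist1. It measured 121 and 121.6 CPM in PM2.5 libraries, against 195.9 and 230.5 CPM in Control libraries. The Control libraries differed more from each other than the PM2.5 libraries did, and both stood well above them. Prrx1 fell to 0.569 of its Control level, a log2 fold change of -0.81 (edgeR, SE 0.075, 95% interval -0.98 to -0.65, adjusted p = 2.311e-05). The predicted gene Gm37644 lies within Prrx1 on the same strand. It had 6 and 7 counts in PM2.5 libraries and 8 and 12 counts in Control libraries. No other gene in the table overlapped one of the 10.

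Snai2 (ENSMUSG00000022676; chromosome 16, 14523716 to 14527249, plus strand), which encodes SLUG, measured 19.43 and 17.59 CPM in PM2.5 libraries, against 34.37 and 31.09 CPM in Control libraries. Both PM2.5 libraries were far below both Control libraries. The log2 fold change was -0.82 (edgeR, SE 0.095, 95% interval -1.03 to -0.61, adjusted p = 0.0001006). The 50 tested genes on either side of Snai2 had a median log2 fold change of -0.31. Set against that regional median, Snai2 fell by 0.51 on the log2 scale (edgeR, adjusted p = 0.002624).

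Its paralog Snai1 (ENSMUSG00000042821; chromosome 2, 167380115 to 167384734, plus strand), which encodes SNAIL, measured 31.44 and 34.39 CPM in PM2.5 libraries, against 30.9 and 27.95 CPM in Control libraries. The PM2.5 libraries were slightly above the Control libraries, with 31.44 next to 30.9 at the boundary. The log2 fold change of 0.17 did not pass (edgeR, 95% interval -0.03 to 0.36, adjusted p = 0.1614). The ratio of Snai2 to Snai1, in RPKM, was 0.496 and 0.41 in PM2.5 libraries and 0.892 in both Control libraries. The ratios did not overlap, and the difference in response between the paralogs was not tested.

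Zeb1 (ENSMUSG00000024238; chromosome 18, 5591860 to 5775467, plus strand) measured 54.26 and 57.57 CPM in PM2.5 libraries, against 72.21 and 72.95 CPM in Control libraries. The groups were clearly apart and the spread within each was small. The log2 fold change was -0.38 (edgeR, SE 0.065, 95% interval -0.52 to -0.23, adjusted p = 0.001168), or -0.24 against the median of its neighbours (edgeR, adjusted p = 0.01717). Zeb2 (ENSMUSG00000026872; chromosome 2, 44873644 to 45007407, minus strand), the other ZEB repressor, measured 102.7 and 111.2 CPM in PM2.5 libraries, against 113.1 and 123.3 CPM in Control libraries. The upper PM2.5 value came close to the lower Control value, and the log2 fold change of -0.15 did not pass (edgeR, 95% interval -0.29 to 0.00, adjusted p = 0.1076). Without Control replicate 1 Zeb2 passed at -0.21 (edgeR, adjusted p = 0.03218). The ratio of Zeb1 to Zeb2, in RPKM, was 0.95 and 0.93 in PM2.5 libraries, against 1.15 and 1.06 in Control libraries.

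Twist1 (ENSMUSG00000035799; chromosome 12, 34007670 to 34009828, plus strand) measured 35.85 and 37.76 CPM in PM2.5 libraries, against 34.16 and 32.4 CPM in Control libraries. Its log2 fold change was 0.15 (edgeR, 95% interval -0.02 to 0.32, adjusted p = 0.1583). Twist2 (ENSMUSG00000007805; chromosome 1, 91729183 to 91775750, plus strand) measured 18.8 and 18.43 CPM in PM2.5 libraries, against 16.4 and 15.19 CPM in Control libraries. Both TWIST genes were a little higher in both PM2.5 libraries, and neither passed. For Twist2 the log2 fold change was 0.24 (edgeR, 95% interval 0.02 to 0.46, adjusted p = 0.07706), and it passed with scaling by library size alone (0.30, edgeR, adjusted p = 0.03364). Twist1 stood at 3.72 and 3.99 times Twist2 in PM2.5 libraries, and at 4.06 and 4.16 times in Control libraries, in RPKM.

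**Figure D2:**
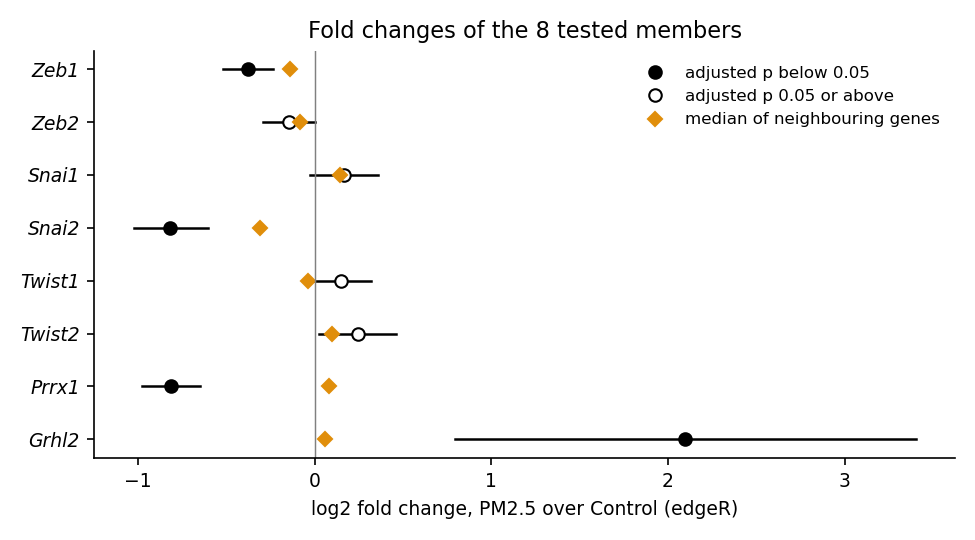
Log2 fold changes, PM2.5 over Control (x axis), of the 8 tested regulators (rows) with 95% intervals from edgeR. Filled circles passed an adjusted p of 0.05, open circles did not, and diamonds give the median of the 50 tested genes on either side. Prrx1, Snai2 and Zeb1 lie left of 0, and Grhl2 lies right of 0 with the widest interval.

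Among the epithelial regulators, Grhl2 (ENSMUSG00000022286; chromosome 15, 37233280 to 37363813, plus strand), an activator of junction genes, had 12 and 19 counts in PM2.5 libraries, against 2 and 6 counts in Control libraries. It passed the filter on low counts only through its PM2.5 libraries, where it is high, so the call cannot be read like the others. The log2 fold change was 2.10 (edgeR, SE 0.59, 95% interval 0.79 to 3.40, adjusted p = 0.01684). From the summed counts, 31 against 8, the ratio was 4.57 with a 95% exact counting interval of 2.06 to 11.5. DESeq2 gave 2.19 with an adjusted p of 0.08018, so the call was lost there, and it was also lost without Control replicate 1 (1.72, edgeR, adjusted p = 0.07393) and without PM2.5 replicate 2 (1.67, edgeR, adjusted p = 0.1689). In either group Grhl2 stayed below 0.16 RPKM.

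Ovol1 (ENSMUSG00000024922; chromosome 19, 5599164 to 5610674, minus strand), a zinc finger repressor that promotes epithelial differentiation, had 4 and 4 counts in PM2.5 libraries, against 1 and 5 counts in Control libraries. The groups overlapped, and Ovol1 was too low to be tested with the filter. Esrp1 (ENSMUSG00000040728; chromosome 4, 11331933 to 11386783, minus strand) had 0 counts in all 4 libraries, which allows up to 0.148 and 0.162 CPM in the PM2.5 libraries and up to 0.153 and 0.114 CPM in the Control libraries. These limits use 3 counts per library and library size without TMM factors and, like the counting interval, cover counting error only.

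The deposited files also hold a total of reads per gene that was never below the count. The reads in that total but outside the count are not defined in the file headers. For Prrx1 they made up 24.0% and 23.9% of the total in PM2.5 libraries, against 13.6% and 15.7% in Control libraries. For Zeb1 they made up 38.3% and 36.3% in PM2.5 libraries, against 28.8% and 29.5% in Control libraries. For Zeb2 they made up 20.8% and 21.3% in PM2.5 libraries, against 14.6% and 14.9% in Control libraries. In all 3 genes both PM2.5 libraries were above both Control libraries. Of the 9806 genes with at least 20 such reads in every library, 45.9% also had a higher share in both PM2.5 libraries.

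The differences in share were 9.28 percentage points for Prrx1, 8.12 for Zeb1 and 6.29 for Zeb2, at the percentiles 98.2, 97.6 and 95.1 of the 9806 genes. The median difference was 0.959 over all of them and 1.24 over the 2250 that were called lower. Snai1 and Twist2, the other regulators with enough such reads, differed by -0.0758 and 0.622 points, and their groups overlapped. Scaled to library size alone, without TMM factors, the reads outside the count of Prrx1 averaged 39.0 ± 0.133 in PM2.5 cells and 36.1 ± 8.83 in Control cells (SD, n = 2 each), so their level overlapped between the groups. On the same scale the counted reads of Prrx1 were 123.4 and 124.5 in PM2.5 libraries, against 190.5 and 226.9 in Control libraries. Reads outside the count, so scaled, were higher in both PM2.5 libraries for 53.6% of the 9806 genes, and for Zeb1, Zeb2, Snai1 and Twist2. With TMM factors, a scaling added after the data were seen, the share was 45.7%, Zeb1, Zeb2 and Twist2 were still higher, and Snai1 overlapped. Over whole libraries, reads outside the count took 11.66% and 11.59% of the total in PM2.5 cells, against 9.81% and 10.53% in Control cells. The part that these library shares have in the gene values was not tested. Esrp1, at 0 counts, had 7 and 4 reads outside the count in PM2.5 libraries, against 0 and 5 in Control libraries.

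**Figure D3:**
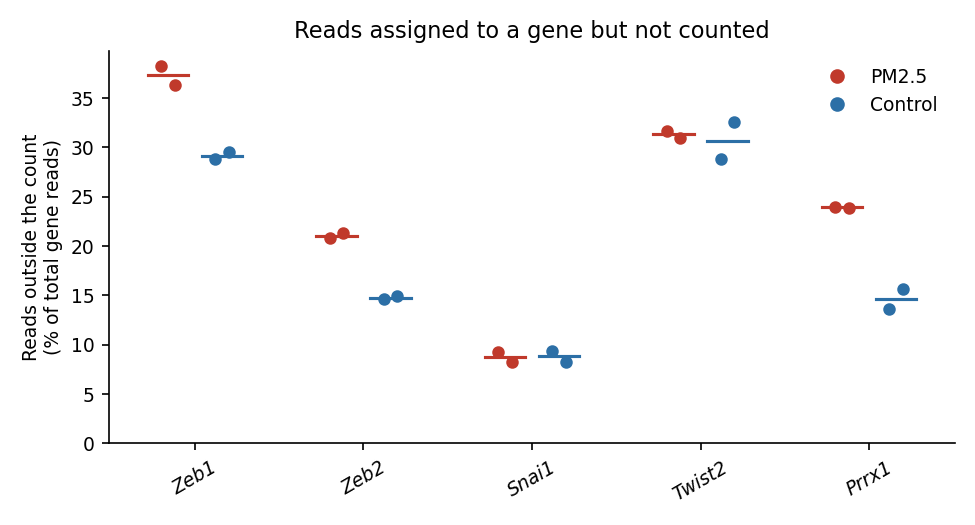
Share of a gene's total reads that lie outside its count (y axis, percent) for the 5 regulators with at least 20 such reads in every library (x axis), with PM2.5 libraries in red on the left and Control libraries in blue on the right. Each point is 1 library and each line the mean of 2. Zeb1, Zeb2 and Prrx1 are higher in both PM2.5 libraries, and Snai1 and Twist2 overlap.

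Genes that partner, restrain or degrade the regulators moved in both directions. For this and the lists below, the shares over all genes tested are 19.2% called higher and 20.4% called lower. No list's counts were tested against them. Of 7 E proteins and ID inhibitors, 6 were tested, 1 rose and 0 fell, with a median log2 fold change of -0.02. Id1, which encodes an inhibitor that sequesters E proteins, rose by 0.45 to 37.11 and 34.92 CPM in PM2.5 libraries, against 28.91 and 24.19 CPM in Control libraries (edgeR, adjusted p = 0.004299). Of the E proteins, the partners of TWIST factors, none passed in edgeR; 1 of the list was lower at an unadjusted p under 0.05, and DESeq2 and limma-voom called 0 lower. Id4 had 0 counts in every library.

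Among 13 corepressors recruited by SNAI and ZEB, all were tested, 1 rose and 3 fell, with a median log2 fold change of -0.09. Sirt1, a deacetylase, rose by 0.93 (edgeR, adjusted p = 0.0007531), at 10.51 and 11.9 CPM in PM2.5 libraries against 5.256 and 6.357 CPM in Control libraries. Suz12, a subunit of the Polycomb repressive complex, was at -0.26 (edgeR, adjusted p = 0.00315), and its call ended against its neighbours' median (-0.10). Ctbp2 at -0.26 (edgeR, adjusted p = 0.02816) and Hdac1 at -0.17 (edgeR, adjusted p = 0.04058) lost their calls in DESeq2, and also without Control replicate 1, without PM2.5 replicate 1 or without PM2.5 replicate 2. Against its neighbours' median Hdac1 was at -0.01 and was not called. The list's count of falls was 1 in DESeq2.

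Of 12 genes for the turnover of SNAI proteins, 4 rose and 5 fell, with a median of -0.11. Usp11, a deubiquitinase, rose by 1.35 (edgeR, SE 0.117, adjusted p = 1.668e-05), at 23.59 and 26.12 CPM in PM2.5 libraries against 8.829 and 10.54 CPM in Control libraries. Fbxo45, which encodes an F-box protein that marks SNAIL for degradation in human cells, fell by 0.45 (edgeR, adjusted p = 0.001312), or by 0.23 against its neighbours' median (edgeR, adjusted p = 0.04794). Usp7, a deubiquitinase, was at -0.41 (edgeR, adjusted p = 0.0003022), and Gsk3b, the kinase whose phosphorylation of SNAIL leads to its degradation, at -0.27 (edgeR, adjusted p = 0.00382). Set against their neighbours, Usp7 was no longer called at -0.09, and Gsk3b turned to 0.01. Without PM2.5 replicate 2 the count of rises was 1.

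Other transcription factors linked to the mesenchymal state moved in both directions. Of 18, 12 were tested, 5 rose and 3 fell, with a median of 0.15. Prrx2, the paralog of Prrx1, rose by 0.59 (edgeR, SE 0.08, adjusted p = 0.0002729), at 44.08 and 47.4 CPM in PM2.5 libraries against 31.74 and 29.07 CPM in Control libraries. The ratio of Prrx1 to Prrx2, in RPKM, was 0.48 and 0.449 in PM2.5 libraries, against 1.08 and 1.39 in Control libraries. The paralog with the higher RPKM therefore differed between the groups, which rests on the lengths used for RPKM. In counts Prrx1 was above Prrx2 in every library. Prrx1 had 2497 and 2309 counts in PM2.5 libraries and 3727 and 5946 in Control libraries. Prrx2 had 910 and 900 in PM2.5 libraries and 604 and 750 in Control libraries. Each paralog was called, in opposite directions, and the difference between them was not tested.

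Tbx3 encodes a T-box repressor with a role in mammary development. It measured 41.52 and 39.19 CPM in PM2.5 libraries, against 18.92 and 21.05 CPM in Control libraries, a rise of 1.01 (edgeR, adjusted p = 1.648e-05). Foxc1, a forkhead factor, rose by 0.67 (edgeR, adjusted p = 0.0001584), and Runx2, a factor of the bone lineage, fell by 0.36 (edgeR, adjusted p = 0.001024). Snai3, the paralog of Snai1 and Snai2, had 0 counts in every library, as did Gsc, Six2 and Tcf21.

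Of 16 further transcription factors of epithelia, 8 were tested, 3 rose and 0 fell in edgeR, with a median of 0.26. At an unadjusted p under 0.05, and also in DESeq2 and limma-voom, 0 were lower. Ehf, an ETS factor of epithelial cells, rose by 1.36 (edgeR, SE 0.215, adjusted p = 0.000719), at 4.457 and 5.056 CPM in PM2.5 libraries against 1.682 and 1.977 CPM in Control libraries. Klf4, a zinc finger factor of epithelial differentiation, was at 0.37 (edgeR, adjusted p = 0.0186), and lost its call in DESeq2, without Control replicate 1 and without PM2.5 replicate 2. Against its neighbours' median it was at 0.87. The count of rises was 1 in DESeq2. Grhl3, Ovol2, Tfap2c and Foxa1 had 0 counts in every library.

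Of 11 splicing regulators in the table, 9 were tested, 0 rose and 4 fell in edgeR, with a median of -0.16. At an unadjusted p under 0.05, 1 was higher, and DESeq2 and limma-voom called 0 higher. Hnrnpm, an hnRNP protein that competes with ESRP1 for its sites, fell by 0.35 (edgeR, SE 0.055, adjusted p = 0.000705), at 370.1 and 352.5 CPM in PM2.5 libraries against 468.2 and 453.5 CPM in Control libraries. Ptbp1 was at -0.24 (edgeR, adjusted p = 0.008205), Khdrbs1 at -0.19 (edgeR, adjusted p = 0.01911) and Celf1 at -0.17 (edgeR, adjusted p = 0.02683). The calls of these 3 were lost without either PM2.5 library, and those of Khdrbs1 and Celf1 also without Control replicate 1. Khdrbs1 was at -0.08 against its neighbours' median and was not called. The count of falls was 7 with a replicate block. Esrp2, the paralog of Esrp1, had 1 and 0 counts in PM2.5 libraries and 2 and 3 in Control libraries, and was picked out after its values were seen.

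**Figure D4:**
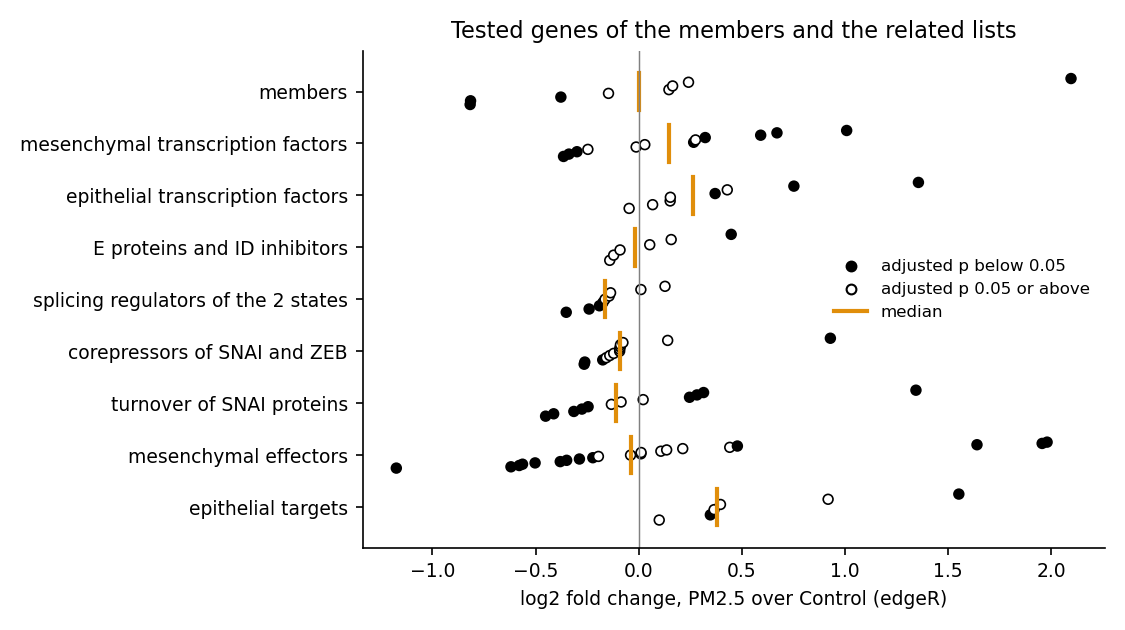
Log2 fold changes, PM2.5 over Control (x axis), of the tested genes in the set of 10 regulators and in 8 related lists (rows), with filled circles for an adjusted p under 0.05 in edgeR and bars for the median. The epithelial transcription factors and epithelial targets have no called gene left of 0, and the splicing regulators have none right of 0. Over all genes tested 19.2% were called higher and 20.4% lower, and an empty side of a short list was not tested against these shares.

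Most of the genes that the repressors are known to shut down were almost silent in both groups. Of 26 epithelial targets, 21 had a mean below 1 CPM and 7 had 0 counts in every library, namely Epcam, Cldn4, Crb3, Tjp3, Krt18, Krt19 and Mal2. The median level was 0.0127 RPKM in PM2.5 cells and 0.0061 RPKM in Control cells. The highest target, F11r, was at 16.05 RPKM in PM2.5 cells and 12.35 RPKM in Control cells. Cdh1, which encodes E-cadherin and was picked out as the best known target, had 4 and 2 counts in PM2.5 libraries, against 3 and 2 counts in Control libraries.

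Only 6 of the 26 targets were tested, of which 2 rose and 0 fell in edgeR, with a median of 0.38. At an unadjusted p under 0.05, and also in DESeq2 and limma-voom, 0 were lower. Patj, which encodes a polarity scaffold of tight junctions, rose by 1.55 (edgeR, SE 0.256, adjusted p = 0.0009161), at 3.246 and 3.055 CPM in PM2.5 libraries against 1.051 and 1.085 CPM in Control libraries. F11r, which encodes junctional adhesion molecule A, was at 0.35 (edgeR, adjusted p = 0.01426), and lost its call without Control replicate 1 and against its neighbours' median.

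Genes of the mesenchymal cytoskeleton and matrix were abundant, with a median of 20.4 RPKM in PM2.5 cells and 25.8 RPKM in Control cells over 24 genes. Of these, 21 were tested, 4 rose and 9 fell, with a median log2 fold change of -0.04. Postn, which encodes the matrix protein periostin, fell by 1.18 (edgeR, SE 0.086, adjusted p = 6.208e-06), at 63.37 and 69.42 CPM in PM2.5 libraries against 136.3 and 162.9 CPM in Control libraries. Vim, the mesenchymal intermediate filament, fell by 0.58 (edgeR, adjusted p = 4.669e-05), and Sparc, a collagen-binding matrix protein, fell by 0.62 (edgeR, adjusted p = 6.715e-05). Dcn, which encodes the proteoglycan decorin, rose by 1.96 (edgeR, SE 0.215, adjusted p = 6.976e-05), at 220.9 and 280.3 CPM in PM2.5 libraries against 44.04 and 83.64 CPM in Control libraries. Of all genes tested, 19.2% were called higher and 20.4% lower, and the list's counts were not tested against these. Among its 4 called higher is Fbn1, singled out after its values were seen, which passed the filter on low counts only through its PM2.5 libraries.

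**Figure D5:**
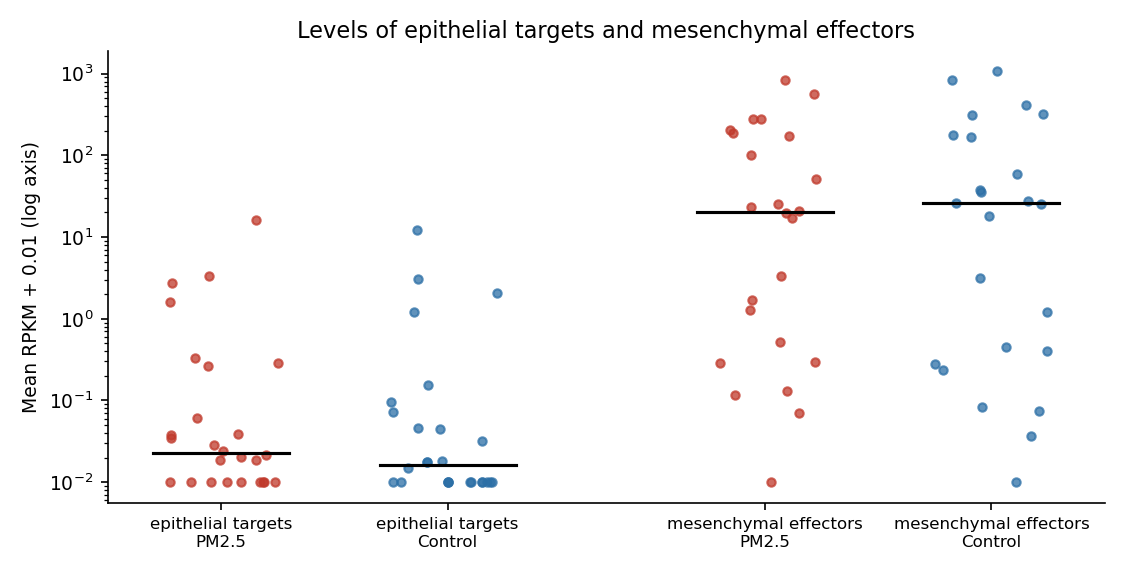
Mean RPKM plus 0.01 (y axis, log scale) of each of 26 epithelial targets and 24 mesenchymal effectors, with PM2.5 in red on the left of each pair and Control in blue on the right. Each point is 1 gene averaged over 2 libraries and each bar a median. The medians of the epithelial targets lie near 0.01 RPKM and those of the mesenchymal effectors at 20.4 and 25.8 RPKM.

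The E-box shown above was also searched in the promoters of the listed genes. Windows ran from 250 bases before to 50 bases after the RefSeq start site, and CACCTG was searched on both strands. Among epithelial targets with a window, 16 of 19 held at least 1 match (84.2%), against 1 of 11 mesenchymal effectors (9.09%), 4 of 10 epithelial transcription factors, 1 of 10 mesenchymal transcription factors and 22.6% of all 27025 genes. The epithelial targets without a window, Cdh1, Krt19 and Mal2 among them, were not searched. Windows were also missing for many other listed genes. They covered 11 of 24 mesenchymal effectors, 10 of 18 mesenchymal transcription factors and 10 of 16 epithelial transcription factors. Of the 16 targets with a match, 13 had a mean below 1 CPM and 5 had 0 counts. Lsr, F11r and Patj held a match and had a mean above 1 CPM. All 3 targets without a match, Cgn, Spint1 and Prom2, had a mean below 1 CPM. The epithelial targets were listed because they are known to be repressed by these factors, so their share is a description. Among the regulators, 5 had a window and 1, that of Snai1, held a match. Another short motif, GCGTG or CACGC, was searched in the same windows. It was found in 13 of 19 epithelial targets (68.4%), 0 of 11 mesenchymal effectors and 35.2% of all genes. It was also found in 2 of 10 epithelial and 5 of 10 mesenchymal transcription factors. Both motifs were more frequent in epithelial targets than in mesenchymal effectors. Between the transcription factor lists, the E-box was more frequent in the epithelial list and the other motif in the mesenchymal list. What sets these shares was not tested.

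The label of the cells was set against marker lists. Over the 4 libraries, 21 of 26 epithelial targets had a mean below 1 CPM. Vim averaged 1469 CPM in PM2.5 libraries and 2196 CPM in Control libraries. That profile is unlike the epithelial label, although the markers Gata3 and Krt14 were expressed, and the reason was not tested. Of 17 mammary luminal markers, 14 had a mean below 1 CPM and 7, Epcam, Krt18 and Krt19 among them, were at 0 in every library. Of the 3 tested, 1 rose and 0 fell in edgeR, and at an unadjusted p under 0.05 0 were lower. The summed level of luminal markers was 113.0 and 119.8 CPM in PM2.5 libraries, against 116.0 and 111.6 CPM in Control libraries, with overlap. By library size alone the sums did not overlap, at 115.3 and 122.7 in PM2.5 libraries against 112.8 and 109.8 in Control libraries. Most of the luminal sum was 1 gene, Gata3. With TMM factors it was at 91.27 and 94.59 CPM in PM2.5 libraries, against 97.96 and 94.03 CPM in Control libraries. Of 10 basal markers, 2 were called lower and 1 higher. One of the lower calls, Cdh3, passed the filter on low counts only through its Control libraries, with 0.3391 and 0.474 CPM in PM2.5 libraries against 2.996 and 2.326 CPM in Control libraries. The basal keratin Krt14 fell by 1.40 (edgeR, adjusted p = 1.455e-06), at 20.73 and 18.59 CPM in PM2.5 libraries against 53.03 and 51.01 CPM in Control libraries. Mylk rose by 0.71 (edgeR, adjusted p = 9.71e-05), at 43.26 and 44.98 CPM in PM2.5 libraries against 25.44 and 28.37 CPM in Control libraries. The basal list summed to 67.58 and 67.63 CPM in PM2.5 libraries, against 84.72 and 84.46 CPM in Control libraries. Most of that sum was Krt14 and Mylk, which moved in opposite directions. Krt5, the partner keratin of Krt14, was at 0 throughout.

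Markers of other cell types were summed in the same way. Of 12 fibroblast markers, 8 were tested, 4 rose and 2 fell, with a median log2 fold change of 0.66. The list summed to 2430 and 2553 CPM in PM2.5 libraries, against 2721 and 2576 CPM in Control libraries. These sums did not overlap, while by library size alone they did, at 2479 and 2613 in PM2.5 libraries against 2646 and 2536 in Control libraries. Most of the sum was Col1a2, with TMM factors at 1811 and 1837 CPM in PM2.5 libraries against 2209 and 2046 CPM in Control libraries. The sum therefore does not give the direction of the list. Leukocyte markers summed to 16.52 and 18.33 CPM in PM2.5 libraries, against 9.775 and 10.62 CPM in Control libraries; 3 of 10 were tested, 1 of them, Cd68, rose by 1.28 (edgeR, adjusted p = 0.0001634), and 2 were at 0. Endothelial markers stayed below 1.5 CPM in sum in every library. The part of these marker levels in the changes of Prrx1, Snai2 and Zeb1 was not tested.

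Profiles most like that of Prrx1, the called regulator with the highest mean RPKM, were sought over the 4 libraries by Euclidean distance between centred log2 CPM values. The nearest were Angpt4 (distance 0.0602), which encodes an angiopoietin, Cyp2j6 (0.0868), a cytochrome P450, and Ly6c1 (0.101), a LY6 surface protein. Angpt4 measured 6.056 and 5.741 CPM in PM2.5 libraries, against 9.565 and 11.24 CPM in Control libraries.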

How the data were processed

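RNA-seq measured transcripts in 2 PM2.5 and 2 Control libraries. The authors deposited unnormalized counts for each gene. The RPKM values beside them, scaled to a length for each gene and to library size, were deposited by the authors too, per the file headers. The total gene reads in the same files are counts made by the authors, and their headers do not define them further. A stranded polyA kit was used on 750 ng of RNA, per the labels' protocols. The sources used here do not give the aligner, the annotation or the use of strand in counting, so reads of overlapping genes may not be separated. Coordinates of genes are on GRCm39, per the submitters' processing notes. Qk was not analysed here, and some genes of the lists are not reported here by name.

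Counts were tested with edgeR 4.0.16 (R 4.3.3): filterByExpr, which left 12478 genes, TMM factors of 1.02 and 1.024 for PM2.5 and 0.973 and 0.984 for Control, and an unpaired quasi-likelihood F test with Benjamini-Hochberg adjustment at 0.05. The SE was taken as the size of the log2 fold change divided by the root of F. The steps were tested on simulated data. The alternatives were other scalings, filters, DESeq2 1.42.0, limma-voom and limma-trend (limma 3.58.1), a replicate block, leaving out each library, and an offset by the median of 50 neighbouring genes on either side. The log2 scale of limma-trend was computed here from the deposited RPKM plus 0.1 or 1. The 2 replicates of each group were distinct libraries: chi-square per gene was 3.76 for PM2.5 and 7.2 for Control, above sampling noise.

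The 10 genes and all lists were chosen with earlier results of these data known. From each list the text names up to 4 called genes with the smallest p, a mean of at least 1 CPM and groups that do not overlap, and genes at 0 in every library. Promoters are RefSeq windows on GRCm38.p6.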

Additional observations from a re-analysis of the deposited data

Results flagged for a closer look

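Reads that belong to a gene's total but lie outside its count were higher, scaled to library size alone, in both PM2.5 libraries than in both Control libraries for 4 of the regulators with at least 20 such reads in every library. They averaged 33.9 ± 0.505 in PM2.5 cells and 29.2 ± 1.17 in Control cells for Zeb1, and 29.1 ± 2.34 in PM2.5 cells for Zeb2 (SD, n = 2 each), whose Control libraries were at 18.8 and 21.3. They averaged 3.22 ± 0.0575 in PM2.5 cells and 2.8 ± 0.451 in Control cells for Snai1, and 8.68 ± 0.306 in PM2.5 cells and 6.85 ± 0.572 in Control cells for Twist2 (SD, n = 2 each). For Zeb1 the counted reads moved the other way. Of all 9806 genes with enough such reads, 53.6% were higher in both PM2.5 libraries. With TMM factors, added after the data were seen, Zeb1, Zeb2 and Twist2 were still higher in both PM2.5 libraries, while Snai1 overlapped, at 3.2 and 3.11 in PM2.5 libraries against 3.21 and 2.52 in Control libraries. The values were not tested, and the file headers do not define these reads.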

How the results depend on the processing

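Prrx1, Snai2 and Zeb1 stayed lower and called under every alternative run, with log2 fold changes of -0.93 to -0.70, -0.90 to -0.75 and -0.42 to -0.34 when each library was left out in turn. Zeb2 was called with a replicate block (-0.14) and ranged over -0.21 to -0.088 without single libraries. Twist2 was called with upper-quartile (0.29) and library-size scaling (0.30). Grhl2 lost its call in DESeq2 (2.19) and with limma-trend, at 0.82 for a pseudocount of 0.1 RPKM and 0.13 for a pseudocount of 1 RPKM, and ranged over 1.67 to 2.82 without single libraries. It was not tested under the stricter filter. Ovol1, tested with no filter, gave 0.55 (edgeR, adjusted p = 0.6574).

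All genes called numbered 2399 higher and 2540 lower, with 1581 higher in DESeq2 and, without single libraries, 1492 to 2266 higher and 1619 to 2575 lower. Called genes were 48.6% higher, against 57.6% with upper-quartile scaling and 62% with library size only, which put the median of all genes at 0.068 on the log2 scale.

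Of the 10 regulators, 2 were called higher with upper-quartile or library-size scaling, 0 under the stricter filter, in DESeq2 and in both limma-trend fits, and 0 to 1 without single libraries. Epithelial transcription factors called higher numbered 1 in DESeq2 and 1 to 3 without single libraries. Mesenchymal transcription factors called lower numbered 1 in both limma-trend fits. For E proteins and ID inhibitors, 1 was lower with the replicate block and 0 to 1 without single libraries. Splicing regulators had 1 higher with upper-quartile scaling, library-size scaling or the replicate block, and 2 lower with library-size scaling, 7 lower with the block and 1 to 4 lower without single libraries. Corepressors had 1 to 2 higher without single libraries. They had 1 lower with upper-quartile scaling, with library-size scaling, in DESeq2 and in both limma-trend fits, 5 lower with the block and 1 to 6 lower without single libraries. Genes of SNAI turnover called higher numbered 2 with no filter, in DESeq2 and in log2(RPKM + 1), 1 with the positional correction and 1 to 3 without single libraries, and 3 were lower with the positional correction. Epithelial targets called higher numbered 4 in log2(RPKM + 1). Gsk3b turned to 0.011 with the positional correction. The cause of these shifts was not tested.

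The labels do not pair the libraries, and same-numbered libraries deviated together only weakly (correlation 0.124 over genes), so the block is a check and not a paired design. Over all genes it called 2820 higher and 2973 lower. With 2 libraries a group, and with Grhl2, Ovol1, Esrp1 and most epithelial targets under 1 CPM, small differences in those genes were not detectable at this depth.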
